A study of Mus musculus with 4 samples.

Results

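Arc, Nptx2, Pcdh8, Plk2 and Arl4d are effector genes of neuronal activity, that is, genes switched on by activity whose products act at synapses, at membranes or in signaling rather than as transcription factors. They were taken by symbol from a deposited table of 230 genes, and all 5 were found in it, each with a level in all 4 libraries. Levels are FPKM (sequenced fragments scaled to the length of the transcript and the size of the library), so they can be compared between genes. RNA came from brains of tau+/+ and tau-/- mice on a C57Bl/6 background, 6 weeks of age, 1 h after injection of vehicle (labelled sham) or of 50 mg/kg pentylenetetrazole (PTZ), which blocks inhibitory GABA receptors and provokes seizures. The tau-/- mice carry a green fluorescent protein sequence knocked into the first exon of Mapt, the tau gene, in every cell, and PTZ-injected mice were picked for a similar seizure score. The study sequenced these brains to learn whether tau-/- mice fail to respond to PTZ in general or only at certain genes.

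There was 1 library for each of the 4 conditions (tau+/+ vehicle, tau+/+ PTZ, tau-/- vehicle and tau-/- PTZ), how many mice went into a library was not given in the sources used here, and no difference below has a replicate error or a test. Part of the label text speaks of primary neurons, whereas the tissue is given as brain, and 0 of 6 neuronal markers (among them Snap25 and Rbfox3) were among the 230 genes, so the tissue could not be checked on them. Mapt was not analysed here. The study kept the 230 genes for a change in tau+/+ after PTZ and for a weaker or absent one in tau-/-. Among them 175 genes rose and 55 fell in tau+/+, and some, such as Xlr3b, named after its values were seen, had a larger response in tau-/-. Because of that selection, a change in tau+/+ and a smaller response in tau-/- are not findings about these 5 genes. In bulk RNA, fewer cells of a type and less RNA per cell cannot be told apart.

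Strong synaptic input raises calcium in a neuron, and kinases such as ERK and the calmodulin-dependent kinases then phosphorylate transcription factors such as CREB and SRF, which are already bound to immediate-early genes (IEGs). A first group of IEGs encodes transcription factors, such as Fos and Egr family members. A second group, to which these genes belong, encodes effector proteins, many of which act at the synapse. Arc promotes removal of AMPA-type glutamate receptors from the postsynaptic membrane, and Plk2 is a kinase that weakens overexcited synapses. Nptx2 is a secreted pentraxin that gathers AMPA receptors at excitatory synapses, Pcdh8 is an adhesion protein of the protocadherin family, and Arl4d is a small GTPase of the ARF-like family that recruits other factors to the plasma membrane.

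All 5 genes are protein-coding and lie on different chromosomes of GRCm38, in the GENCODE M21 annotation. Arc lies on chromosome 15 from 74669083 to 74672570 on the minus strand, and its transcript of 3055 bases has 3 exons. Nptx2 lies on chromosome 5 from 144545902 to 144557478 on the plus strand, with 5 exons. Pcdh8 lies on chromosome 14 from 79766775 to 79771312 on the minus strand, with 3 exons, and it overlaps 1 annotated antisense gene, Gm9748, whose reads could not be told apart from those of Pcdh8 if the library did not keep the strand. Plk2 lies on chromosome 13 from 110395046 to 110400844 on the plus strand, with 14 exons. Arl4d lies on chromosome 11 from 101665541 to 101667832 on the plus strand, and its transcript of 1382 bases, with 2 exons, is the shortest of the set. No annotated gene overlaps Arc, Nptx2, Plk2 or Arl4d.

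Promoter sequences are shown for Arl4d, Plk2 and Pcdh8. They come from RefSeq on GRCm38.p6, in which only these 3 of the 5 genes had an entry. Each run below gives the 250 bases before the gene start, 5′ to 3′ on the strand of the gene, and capitals mark matches to the cAMP response element (CRE, TGACGTCA), the classical binding sequence of CREB, or to its core, TGACG. The Arl4d promoter is chr11:101665291-101665540, the Plk2 promoter is chr13:110394794-110395043 and the Pcdh8 promoter, on the minus strand, is chr14:79771313-79771562.
Arl4d: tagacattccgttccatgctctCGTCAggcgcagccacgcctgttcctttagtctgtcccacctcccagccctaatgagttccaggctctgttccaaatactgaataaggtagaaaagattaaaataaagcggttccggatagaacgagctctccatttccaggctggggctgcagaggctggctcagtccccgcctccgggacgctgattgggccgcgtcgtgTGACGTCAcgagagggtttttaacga
Plk2: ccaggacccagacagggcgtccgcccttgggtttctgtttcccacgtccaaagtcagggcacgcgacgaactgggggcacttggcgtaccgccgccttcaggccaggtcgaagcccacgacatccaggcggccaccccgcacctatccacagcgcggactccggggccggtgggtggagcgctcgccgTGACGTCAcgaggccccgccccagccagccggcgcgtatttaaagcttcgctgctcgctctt
Pcdh8: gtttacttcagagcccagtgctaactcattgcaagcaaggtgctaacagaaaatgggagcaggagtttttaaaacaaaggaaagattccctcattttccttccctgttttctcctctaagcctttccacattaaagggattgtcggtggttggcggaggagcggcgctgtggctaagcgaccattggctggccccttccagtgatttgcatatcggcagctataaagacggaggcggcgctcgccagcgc

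The Arl4d and Plk2 promoters each held 1 full CRE, and the Pcdh8 promoter held none. The window searched ran from 250 bases before to 50 bases after the gene start, on both strands, and a full CRE holds a CRE core on each strand. In Arl4d the CRE lay at positions -26 to -19 and in Plk2 at -62 to -55, counted from -1 as the base before the start. A further CRE core lay at -228 to -224 in Arl4d and at 22 to 26 in Plk2. A full CRE was found in 588 of 32851 RefSeq promoters of this length (1.79%), and the CRE core in 20.8%. The longest run that the Arl4d and Plk2 promoters shared was GTGACGTCACGAG, 13 bases around the CRE, which was found in 7 of the 32851 promoters (0.0213%), and among the 158 of the 230 genes that had a RefSeq promoter only in those of Arl4d and Plk2. This run was looked for after the promoters had been read. The AP-1 site (TGANTCA), which Fos and Jun proteins bind, and the CArG box, which SRF binds, were found in none of the 3 windows, against 7.81% and 1.63% of all promoters. A match describes letters only, and binding was not measured.

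**Figure D1:**
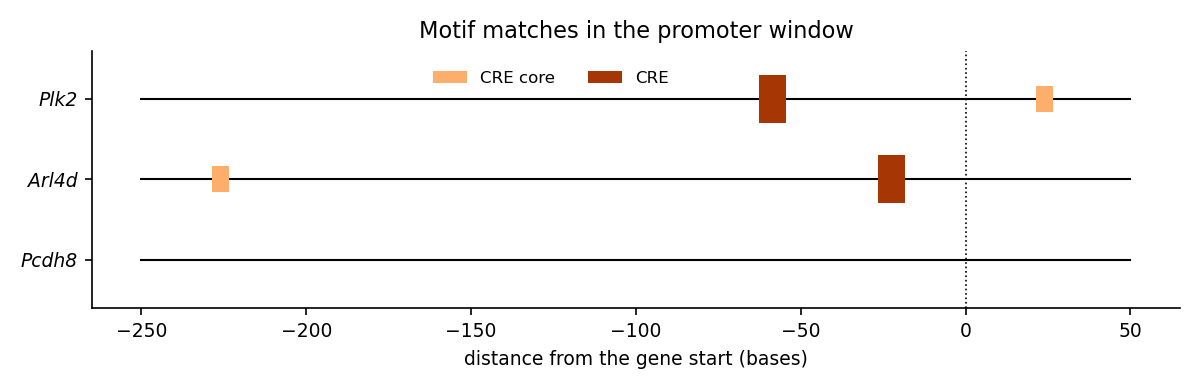
Matches to the CRE (dark) and the CRE core (light) in the promoter windows of Plk2, Arl4d and Pcdh8. The x axis is the distance from the gene start in bases, and the dotted line marks the start. Cores within a CRE are hidden by it. Arl4d and Plk2 have 1 CRE each, close to the start, and Pcdh8 has none.

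The level of Arc was 39.0 FPKM after vehicle and 168 FPKM after PTZ in tau+/+ mice, and 67.2 FPKM after vehicle and 33.6 FPKM after PTZ in tau-/- mice. The tau+/+ PTZ library stood above the rest, at 2.50-fold the next highest, and the lowest level of Arc was in the tau-/- mice that had received PTZ. The log2 response to PTZ was 2.11 in tau+/+ (4.30-fold) and -0.999 in tau-/-, where Arc fell by 49.9% from its vehicle level. Arc gained 129 FPKM in tau+/+, the largest gain in level among the 5 genes.

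Plk2 was the most abundant of the 5 genes in 3 of the 4 libraries, with 63.4 FPKM after vehicle and 133 FPKM after PTZ in tau+/+ mice, and 75.4 FPKM after vehicle and 76.3 FPKM after PTZ in tau-/- mice. Only in tau+/+ PTZ was Arc higher. Both tau-/- libraries lay close together, and the 3 libraries other than tau+/+ PTZ spanned 1.20-fold. The log2 response was 1.07 in tau+/+ (2.09-fold) and 0.02 in tau-/-. In tau-/- PTZ, Plk2 had the highest level of all 230 genes.

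Nptx2, the secreted pentraxin, stood at 14.1 FPKM after vehicle and 24.4 FPKM after PTZ in tau+/+ mice. Its levels in tau-/- mice were 14.5 FPKM after vehicle and 13.1 FPKM after PTZ. The log2 response was the smallest of the set in tau+/+, at 0.79 (1.73-fold), and was -0.15 in tau-/-. The 3 libraries other than tau+/+ PTZ spanned 1.11-fold, the narrowest range among the 5 genes.

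Pcdh8, the protocadherin, stood at 16.8 FPKM after vehicle and 58.3 FPKM after PTZ in tau+/+ mice, and at 19.6 and 20.2 FPKM after the same treatments in tau-/- mice. As for Plk2, both tau-/- libraries were nearly level, and tau+/+ vehicle was the lowest of the 4. The log2 response was 1.79 in tau+/+ (3.46-fold) and 0.04 in tau-/-, and the 3 libraries other than tau+/+ PTZ spanned 1.20-fold.

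Arl4d, the small GTPase, was measured at 5.12 FPKM after vehicle and 47.2 FPKM after PTZ in tau+/+ mice. In tau-/- mice it was measured at 10.5 FPKM after vehicle and 6.85 FPKM after PTZ. It was the least abundant of the 5 genes in every library but tau+/+ PTZ. Its log2 response in tau+/+ was the largest of the 5, 3.20 (9.22-fold), which ranked 10 of 230. In tau-/- it fell by 34.8% from its vehicle level, a log2 response of -0.62 that lies just past 1.5-fold (0.58 on the log2 scale). The library after vehicle was the higher one in tau-/-, at 2.05-fold the level in tau+/+ vehicle.

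**Figure D2:**
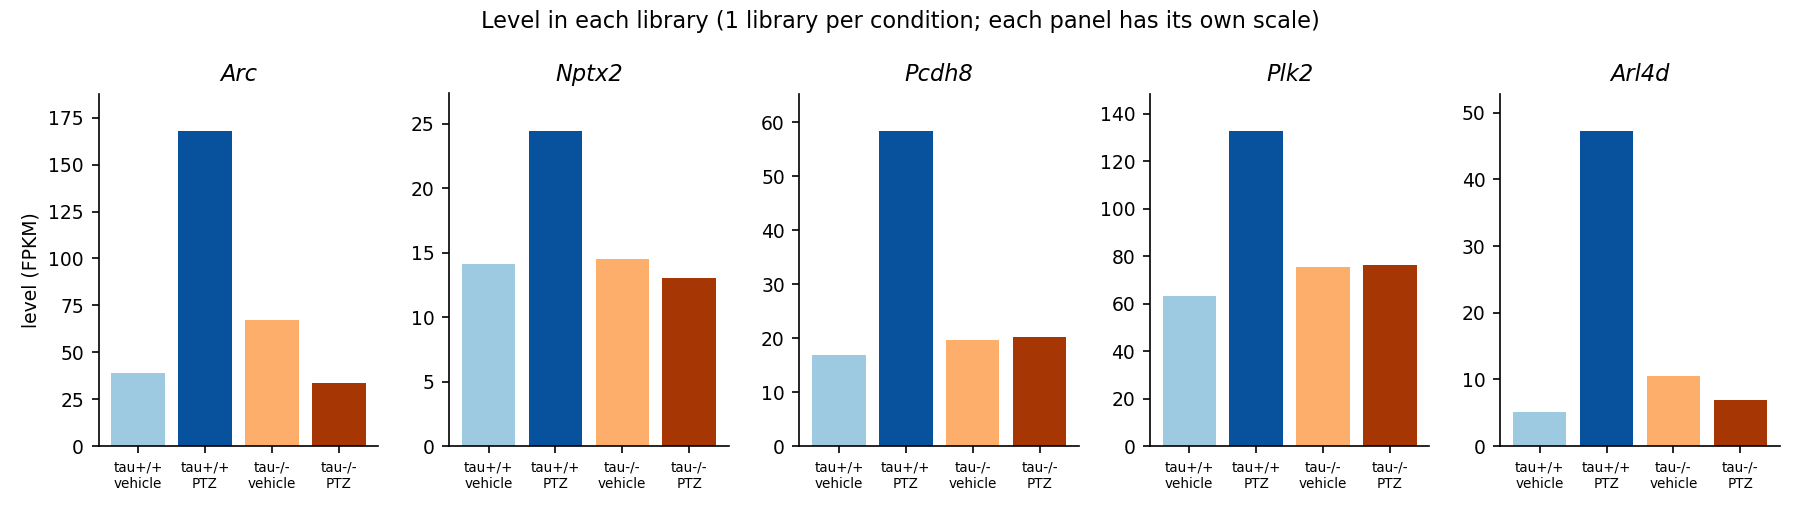
Level of each gene in FPKM (y axis, from 0, on a scale of its own for each gene) in the 4 libraries (x axis). Bars are single libraries, with no error. Every gene is highest in tau+/+ PTZ, and for Arc, Arl4d and Nptx2 the tau-/- vehicle bar is the next highest, at 67.2, 10.5 and 14.5 FPKM.

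All 5 genes rose past 1.5-fold, the study's threshold, in tau+/+ after PTZ, as did 76.1% of the 230 genes, a share that the making of the table sets. Of the 5 genes, 4 rose past 2-fold (Arl4d, Arc, Pcdh8 and Plk2), against 37.0% of the table and 85 of its 175 rising genes. Of the 4 libraries, tau+/+ PTZ gave the highest level for all 5, as it did for 75.7% of the table. Among the 175 rising genes it did so for 174. The median log2 response in tau+/+ was 1.79 over the 5 genes, 0.80 over the table and 0.97 over the 175 rising genes of the table. In order of the fold change, the genes ran Arl4d, Arc, Pcdh8, Plk2, Nptx2. By the gain in level the order was Arc with 129 FPKM, Plk2 with 69.3 FPKM, Arl4d with 42.1 FPKM, Pcdh8 with 41.5 FPKM and Nptx2 with 10.3 FPKM. How far neighbours in either order differ beyond library error could not be read from 1 library per condition.

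In tau-/- after PTZ, 0 of the 5 genes rose past 1.5-fold against vehicle of the same genotype, beside 8.70% of the table. Arc and Arl4d fell past 1.5-fold, beside 16.5% of the table, and Nptx2, Pcdh8 and Plk2 stayed within it. Of the 38 genes of the table that fell, 17 were markers of choroid plexus epithelium, a tissue taken up below. The median log2 response in tau-/- was -0.15 over the 5 genes and -0.10 over the table, and against tau+/+ vehicle these medians were 0.26 and 0.03. The responses thus formed 2 kinds: values near 0 for Pcdh8, Plk2 and Nptx2, from -0.15 to 0.04, and lower values for Arc and Arl4d. Measured instead against tau+/+ vehicle, Arc was at -0.21 and Arl4d at 0.42, neither past 1.5-fold, so the falls in both genes rest on the tau-/- vehicle library. Against tau+/+ vehicle 0 of the 5 genes rose past 1.5-fold, beside 14.8% of the table. Centred on the median of the table, Arl4d was at -0.51 in tau-/- and Arc at -0.89, so that Arc alone stayed past 1.5-fold.

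**Figure D3:**
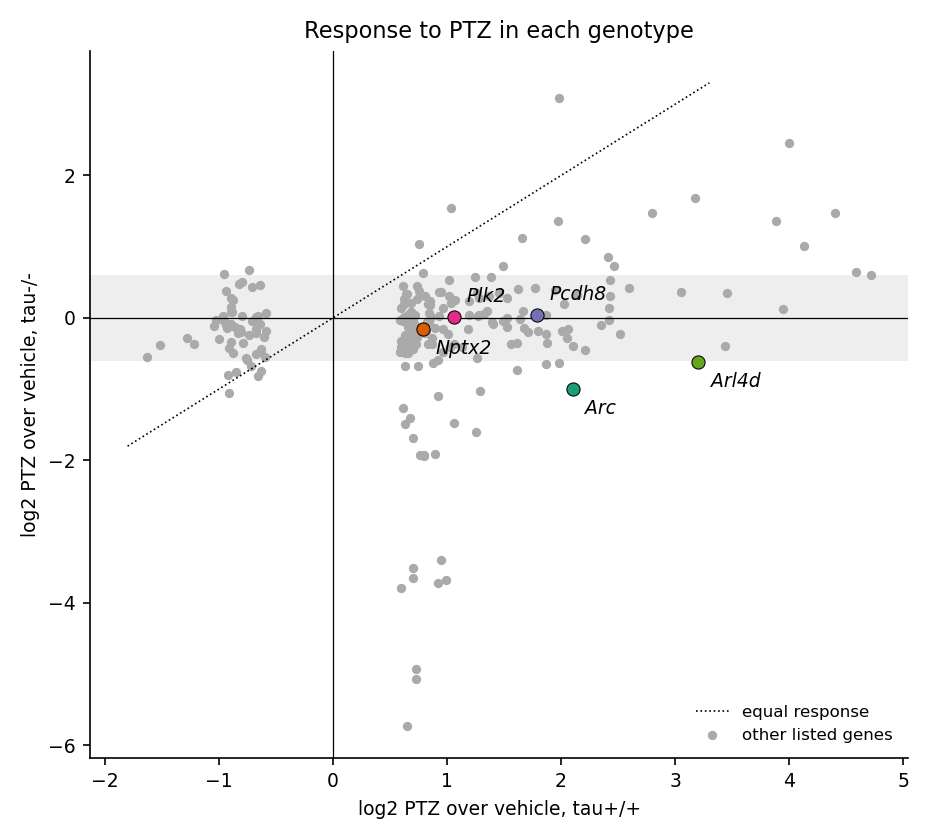
Log2 response to PTZ in tau+/+ (x axis) and in tau-/- (y axis) for 229 of the 230 genes. Grey points are the other listed genes, the grey band marks changes within 1.5-fold in tau-/-, the dotted line marks equal responses, and Defb11, listed at 0 in tau-/- PTZ, is not drawn. Plk2, Pcdh8 and Nptx2 lie in the band, and Arc (-0.999) and Arl4d (-0.62) lie below it.

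After vehicle alone, all 5 genes had higher values in tau-/- than in tau+/+, beside 58.7% of the table. Of the 175 genes of the table that rose in tau+/+, 121 did so. The difference went past 1.5-fold for Arl4d (2.05-fold) and Arc (1.72-fold), beside 13.9% of the table. It was 1.19-fold for Plk2, 1.16-fold for Pcdh8 and 1.02-fold for Nptx2. The median log2 difference was 0.25 over the 5 genes and 0.11 over the table. It was 0.23 over the 175 rising genes, close to the value of the 5 genes. Among genes of the table with a mean of at least 5 FPKM, a filter that all 5 genes passed, it was also 0.23. Relative to the shift of 0.11 of the whole table, Nptx2 was at -0.07, so its direction flips with this scaling, and the other 4 kept theirs. Both vehicle libraries also serve as baselines of the responses, so these values are not independent of them. The table was selected on those responses, and a low tau+/+ vehicle level favours a listed rise. The higher tau-/- vehicle levels are therefore not free of that selection.

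After PTZ, all 5 genes were lower in tau-/- than in tau+/+ by more than 1.5-fold, beside 60.4% of the table. Of the 175 genes of the table that rose in tau+/+, 139 were lower by that much. Selection for a rise in tau+/+ and a weaker response in tau-/- favours this direction. The lower levels are thus not a finding about these 5 genes. The tau-/- level was 14.5% of the tau+/+ level for Arl4d, 20.0% for Arc, 34.6% for Pcdh8, 53.5% for Nptx2 and 57.5% for Plk2. The log2 differences ran from -2.79 for Arl4d to -0.80 for Plk2. Their median was -1.53 over the 5 genes, -0.78 over the table and -0.97 over the 175 rising genes. On the log2 scale the difference between the responses of the genotypes is the difference after PTZ minus the difference after vehicle. The difference after vehicle made up 27.1% of it for Arl4d, 25.3% for Arc, 23.9% for Plk2, 12.6% for Pcdh8 and 3.75% for Nptx2.

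**Figure D4:**
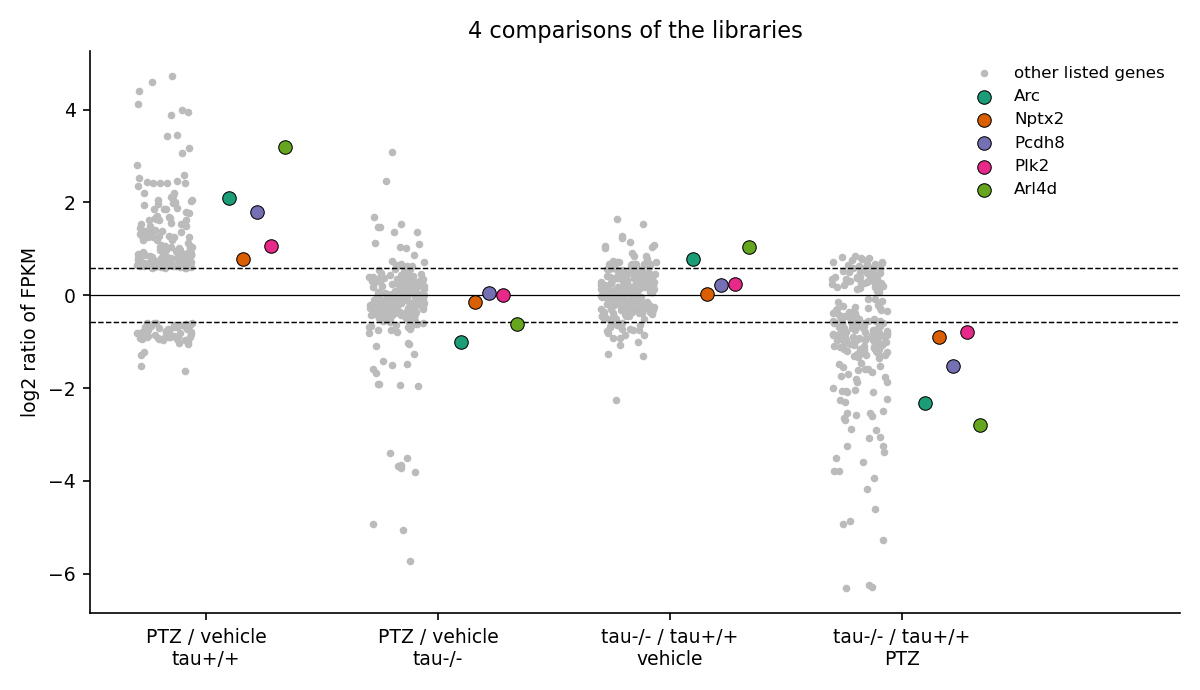
Log2 ratio of FPKM (y axis) in 4 comparisons of the libraries (x axis) for the 5 genes, in color, and for the other listed genes, in grey, with Defb11 left out of the ratios that use tau-/- PTZ. Dashed lines mark 1.5-fold in either direction. The 5 genes lie above the upper line in tau+/+ and below the lower line in the comparison after PTZ.

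The summed levels of markers of other cell types differed between the same libraries. Only markers in the table enter these sums, and all of them rose past 1.5-fold in tau+/+. The table was selected for such changes, so a rise of a sum in tau+/+ and a weaker one in tau-/- are not findings. Of 21 markers of choroid plexus epithelium, the tissue that makes cerebrospinal fluid, 19 were in the table and none was at 0, and their summed level was 1605, 2668 and 1189 FPKM in tau+/+ vehicle, tau+/+ PTZ and tau-/- vehicle but 59.1 FPKM in tau-/- PTZ. Most of these sums was Ttr, and the other 18 markers summed to 102, 176, 81.6 and 26.1 FPKM in the same order. Plat, 1 of these 18, is also made by neurons and vessels. It gave 12.2, 19.2, 15.2 and 14.0 FPKM of the sums of the 18, again in that order. The 5 listed of 9 markers of meninges summed to 15.9, 26.2, 16.7 and 11.0 FPKM in tau+/+ vehicle, tau+/+ PTZ, tau-/- vehicle and tau-/- PTZ, and the 6 listed of 9 endothelial markers to 21.1, 55.1, 21.7 and 28.6 FPKM. Klf2 and Klf4, of these 6, are also in the list of activity-induced transcription factors. Most of the gain of the endothelial sum after PTZ in tau+/+ mice was in Adamts1 (4.59 to 18.7 FPKM), Klf2 (6.21 to 11.9 FPKM), Apold1 (0.63 to 5.70 FPKM) and Klf4 (2.31 to 7.30 FPKM), whereas Col4a2 went from 5.42 to 8.14 FPKM and Gimap6 from 1.89 to 3.38 FPKM. The 5 genes studied here summed to 138, 430, 187 and 150 FPKM in the same order. In tau-/- PTZ, Plk2 gave 76.3 FPKM of that sum. The part of tissue composition in the levels of the 5 genes was not tested.

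Other activity-induced genes of the table were counted in the same way. All 25 genes of a list of activity-induced transcription factors were in the table. Their median log2 response was 1.95 in tau+/+ but 0.35 in tau-/-. Of these, 7 rose and 1 fell past 1.5-fold in tau-/-. Of 31 other activity-induced effector genes, such as signaling enzymes and phosphatases, 19 were in the table, with median log2 responses of 1.61 and -0.19. In tau-/- 2 of the 19 rose and 1 fell past 1.5-fold. Against tau+/+ vehicle, 14 of the 25 transcription factors, 6 of the 19 other effectors and 0 of the 5 genes studied here rose past 1.5-fold in tau-/- PTZ, beside 14.8% of the table. The lists were chosen with results of these data known, and the differences between them were not tested.

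Of 22 relatives of the 5 genes and further small GTPases, 6 were in the table, and they did not all follow them. Plk5, a polo-like kinase related to Plk2, had 3.18 FPKM after vehicle and 5.31 FPKM after PTZ in tau+/+ mice, and 6.62 and 4.14 FPKM after the same treatments in tau-/- mice. Unlike Plk2 it was highest in tau-/- vehicle, and its log2 response in tau-/- was -0.68. Arl5b, an ARF-like GTPase as Arl4d is, had 3.24 and 8.27 FPKM in tau+/+ mice and 3.95 and 4.22 FPKM in tau-/- mice, again after vehicle and PTZ, which gives log2 responses of 1.35 and 0.09. Of 4 further small GTPases, Gem, Rasl11a and Rasl11b rose in tau+/+, by log2 values of 1.88, 1.80 and 0.70, while Rnd1 fell by 0.67. After vehicle, all 3 of those that rose were higher in tau-/- than in tau+/+ mice, by log2 values of 1.14, 0.66 and 0.57, whereas Rnd1 was lower there. None of these 4 changed past 1.5-fold in tau-/-.

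Of 10 other synapse genes, 5 were in the table. Bdnf, a neurotrophin released at synapses, was at 13.2 FPKM after vehicle and 26.5 FPKM after PTZ in tau+/+ mice, and at 14.3 and 12.2 FPKM in tau-/- mice. Its values came close to those of Nptx2 in all libraries. Plat, a secreted protease that neurons and vessels make, had log2 responses of 0.66 in tau+/+ mice and -0.13 in tau-/- mice, and Sema3b, a secreted guidance factor, of 0.80 and -1.92. Both also stand among the choroid plexus markers above. Cbln1 and Unc13c, a secreted synapse organizer and a vesicle priming protein, both abundant in cerebellar granule cells, went the opposite way. Cbln1 had 3.26 FPKM after vehicle and 1.87 FPKM after PTZ in tau+/+ mice, and 1.79 and 2.54 FPKM in tau-/- mice. Unc13c had 2.87 and 1.72 FPKM in tau+/+ mice, and 1.52 and 2.44 FPKM in tau-/- mice, so that tau+/+ vehicle was the highest library for both. Low levels such as these carry an error of unknown size.

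The likeness of patterns was taken as the distance between log2 levels over the 4 libraries after the mean of each gene was removed, among 228 other genes. Nearest to Arc were C2cd4b, at a distance of 0.39, and Gadd45g, a growth arrest gene, at 0.47. Nearest to Arl4d were the transcription factor genes Egr4, at 0.30, and Junb, at 0.70. Egr4 was at 9.45 FPKM after vehicle and 102 FPKM after PTZ in tau+/+ mice, and at 22.3 and 17.0 FPKM in tau-/- mice, so its vehicle levels too differed by over 2-fold. Nfkbiz, at 0.06, and Tiparp, at 0.25, were nearest to Pcdh8. Irf2bp2, at 0.10, and Siah2, at 0.13, were nearest to Plk2. For Nptx2 the nearest were 9030025P20Rik, at 0.06, and Hax1, at 0.08. Among the 5 genes themselves, Plk2 and Nptx2 were the closest pair, at 0.28, and Nptx2 and Arl4d the farthest, at 1.80. These distances describe 4 libraries and cover the size of a response as well as its shape.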

How the data were processed

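Brain RNA of tau+/+ and tau-/- mice, 1 library for each genotype and treatment, was sequenced by the authors. Read pairs were aligned to GRCm38/mm10 with TopHat2 2.03 and Bowtie2 2.0.0.6, with 2 mismatches allowed, at a stated minimum of 24 M pairs per sample. The deposited FPKM values were computed by the authors with Cuffdiff 2.01, and the annotation and strand setting are not given in the sources used here. FPKM values do not show how deeply a library was sequenced, so no counting error is given. A table of 230 genes was used, and its 4 columns of the authors' own fold changes and p-values were not.

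Log2 ratios of FPKM were computed without a pseudocount or a filter and set against a 1.5-fold threshold. No test was possible with 1 library per condition. Named genes are the 5 members, the 2 nearest genes in pattern to each, relatives and other synapse genes from fixed lists, and a few genes named after their values or sequences were seen (Xlr3b, Defb11, the endothelial markers and those with a CRE). Members and lists were chosen with earlier results of these data known. Of the 230 genes, 158 had a RefSeq promoter by symbol. The functions were tested on simulated data. Alternatives were pseudocounts of 0.1 and 1 FPKM, the other baseline, median centring, a threshold of 2-fold, filters at a mean of 1 or 5 FPKM, and leaving out choroid plexus and meninges genes. Python 3.11.15, numpy 2.4.6, pandas 2.3.3 and matplotlib 3.10.9 were used.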

Additional observations from a re-analysis of the deposited data

Results flagged for a closer look

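Of the 5 genes, 3 rose in tau+/+ and had a response below 0 in tau-/-, a share near that of the table, in which 97 of the 175 rising genes did so. The difference was not tested, since each condition has 1 library. The log2 response of Arc was 2.11 in tau+/+ but -0.999 in tau-/-. Arl4d had -0.62 in tau-/- and 3.20 in tau+/+, and against tau+/+ vehicle its value in tau-/- was 0.42. Nptx2 had -0.15 in tau-/- and 0.79 in tau+/+, and its value in tau-/- lies within 1.5-fold.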

How the results depend on the processing

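No paired analysis was possible because each condition has 1 library and no replicate number. Of 55 recomputed values of single genes, 38 moved by at most 0.1 on the log2 scale, 16 moved by more and 1 changed sign. The last was the log2 response of Arl4d in tau-/-. It was -0.62, past 1.5-fold, against its own vehicle and 0.42, within 1.5-fold, against tau+/+ vehicle. Among the 16, the difference of Nptx2 after vehicle, within 1.5-fold, also changed sign, to -0.07, after centring. The median log2 response of the 5 genes in tau-/- was 0.26 against tau+/+ vehicle and -0.045 after centring on the median of the table, and the median difference after vehicle was 0.14 after centring. The genes falling past 1.5-fold in tau-/- numbered 1 with a pseudocount of 1 FPKM (21 of the 230) and 0 against tau+/+ vehicle (32 of the 230). Past 2-fold, 0 of the 5 genes fell in tau-/- (23 of the 230), 1 was higher in tau-/- after vehicle (10 of the 230) and 3 were lower in tau-/- after PTZ (85 of the 230). All 5 genes passed the filters at a mean of 1 FPKM (222 genes) and of 5 FPKM (102 genes), and for the table the median log2 response in tau+/+ was 0.97 with the latter. With that filter the table's median difference between genotypes moved from 0.11 to 0.23 after vehicle and from -0.78 to -0.94 after PTZ. Without the choroid plexus and meninges lists, 206 genes were left. Their median log2 response in tau-/- was -0.05, and their median difference after PTZ was -0.69. The 5 genes rose past 1.5-fold in tau+/+ with pseudocounts of 0.1 and 1 FPKM, as did 172 and 135 of the 230. Depth limits are unknown for Arl4d, the gene of lowest level among the 5 in both vehicle libraries and in tau-/- PTZ.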

Other observations

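The motifs were also counted in groups of the table. A full CRE was found in 12 of 171 promoters of the listed genes that rose in tau+/+ (7.02%), in 2 of 31 promoters of the activity-induced transcription factors (6.45%) and in 1 of 44 of those of genes that fell (2.27%), beside 1.79% of all promoters. The CRE core was found in 45.0% of the promoters of rising genes, in 20.5% of those of falling genes and in 26 of the 31 promoters of the transcription factors (83.9%). The CArG box was found in 8 promoters of rising genes (4.68%), in 5 of the 31 promoters of the transcription factors (16.1%) and in 0 of the 44 promoters of falling genes. The AP-1 site was found in 4.09% of the promoters of rising genes, in 4.55% of those of falling genes, in 3.23% of those of the transcription factors and in 7.81% of all promoters. A gene can have several promoters here, base composition was not matched, and no test was made.

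The listed genes with a full CRE were 13: Arl4d and Plk2 themselves, Arl5b, the relative of Arl4d, Btg2, Ccnl1, Clk4, Dusp1, Errfi1, Maff, Nfkbid, Ppp1r15a, Rcan1 and Wdr5b. Of these, 12 rose in tau+/+, and Wdr5b fell. These genes were named after their sequences were searched.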
